A study of Mus musculus with 4 samples.

Results

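The 9 genes described here encode ligands and receptors of the vascular endothelial growth factor (VEGF) family. These are the ligands Vegfa, Vegfb, Vegfc and Pgf, the receptor tyrosine kinases Flt1, Kdr and Flt4, and the coreceptors Nrp1 and Nrp2. The members were taken by gene symbol, and all 9 were among the 27998 genes of the count matrices. Figf, the gene of the ligand VEGF-D, was also measured and is not among the 9. Nuclei came from the right ventricles (RVs) of C57/BL6J mice of WT genotype at postnatal day 21 (P21). In 2 libraries the mice had undergone sham surgery and in 2 libraries surgery for right ventricular volume overload (RVVO), in which a fistula joins the abdominal aorta and the inferior vena cava, at P7. Whether a library held nuclei of 1 mouse or of a pool is not stated in the sources used here, so the p-values measure only the spread between these libraries. Values in lists of 4 are in the order sham 1, sham 2, RVVO 1, RVVO 2.

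VEGF-A is secreted by cells that sense low oxygen or a high metabolic demand, and it binds Flt1 and Kdr on endothelial cells (ECs). Kdr carries most of the signal for EC growth and survival, whereas Flt1 binds the ligand tightly, signals weakly, and also serves as the receptor of VEGF-B and placental growth factor (Pgf). VEGF-C acts through Flt4, the receptor of lymphatic ECs, and the neuropilins Nrp1 and Nrp2 present VEGF ligands and class 3 semaphorins to the signalling receptors. In the heart, cardiomyocytes (CMs) are known as a source of VEGF-A for the capillaries that lie along them.

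The libraries held 53090 barcodes with 51010039 to 64739206 unique molecular identifiers (UMIs, counts of captured RNA molecules) per library, and 42800 nuclei passed the filters. Clusters were named by markers that did not include the 9 genes. Of the 42800 nuclei, 36251 were named and 6549 stayed unnamed. Of all barcodes, 276 occurred in more than 1 library, 182 of them among kept nuclei. The female transcript Xist reached 1460, 1471, 0.774 and 0.680 CPM (counts per 1000000 UMIs), and the Y-linked Uty 0.111, 0.0277, 321 and 315 CPM. Both sham libraries therefore held female and both RVVO libraries male nuclei, and an effect of sex cannot be told apart from one of the operation. CM marker RNA was found in all lineages. The sum of 8 CM markers was 64178 to 71481 CPM in CMs and 17195 to 31690 CPM in macrophages, and 9 EC markers summed to 5640 to 6392 CPM in ECs and to 103 to 141 CPM in CMs.

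Levels below are the CPM of a gene in the summed nuclei of a lineage in a library. They are compared only within a gene, since they are not scaled by gene length. There were 8 lineages with at least 20 nuclei in every library, and the largest were CMs with 2263, 2721, 2593 and 4360 nuclei and ECs with 4228, 4378, 1974 and 2162 nuclei. Each lineage was tested against the mean of the other 7 with edgeR's quasi-likelihood test, the library as a block and Benjamini-Hochberg adjustment over 12507 genes. Folds between lineages or subtypes are estimates of this model, in which the sums are scaled by the trimmed mean of M-values (TMM), and not ratios of the CPM. Over all genes tested, TMM scaling raised the log2 difference of CMs by a median of 0.58 against scaling by library size alone, so the folds given for CMs are larger than their CPM show. In the other lineages and the subtypes this shift was between -0.15 and 0.04. Of the 72 pairs of a gene and a lineage, 16 were called higher and 26 lower at an adjusted p under 0.05. CMs had 2 members called higher and 7 lower, beside 37.8% and 38.2% of all genes, and ECs 6 higher and 0 lower, beside 26.3% and 27.1%. Fibroblasts had 2 higher and 4 lower (22.9% and 21.4% of all genes), epicardial nuclei 3 and 3 (22.7% and 19.2%) and macrophages 1 and 6 (25.3% each). In pericytes 0 were higher and 3 lower (17.4% and 14.8% of all genes), in smooth muscle nuclei 1 and 2 (11.3% and 8.61%) and in glial nuclei 1 and 1 (9.79% and 6.01%). Without TMM factors the members called were the same in number in all lineages but fibroblasts (3 and 4) and macrophages (2 and 6), where Vegfa and Nrp1 were added. The shares of all genes then were 20.4% higher and 59.5% lower in CMs, 32.4% and 13.9% in fibroblasts, 30.8% and 20.3% in macrophages and 11.9% and 3.9% in glial nuclei.

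Vegfa, the main angiogenic ligand, was highest in CMs, at 908, 884, 640 and 697 CPM. The gene lies at chr17:46016993-46032369 on the minus strand (GRCm38). All 4 CM values lay above the 4 values of every other lineage, and the estimate in the model was 16.7-fold (log2 4.06 ± 0.07 SE, edgeR adjusted p = 7.14e-32, 4 libraries). CMs held 90.7%, 89.1%, 93.1% and 92.2% of all Vegfa UMIs in named nuclei. Fibroblasts followed with 116, 121, 106 and 110 CPM, and their values did not overlap with those of ECs at 79.5, 103, 79.7 and 97.8 CPM. In the other lineages Vegfa was between 34.6 and 93.0 CPM. The level in macrophages was 6.70% to 9.14% of that in CMs. Of 6 other genes known from CMs, the calcium channel genes Cacna1c, at 2.94% to 5.13% of its CM level there, and Ryr2, at 5.81% to 8.0%, were below the share of Vegfa or close to it. The sarcomere genes Ttn, Tnnt2, Myh6 and Myl2 were above it, at 23.4% to 42.4%, 27.5% to 49.2%, 64.3% to 101% and 147% to 205%. The part of free RNA in these low levels was not tested. Adipocytes were present in 2 libraries only, with 27 and 35 nuclei, and their Vegfa level was 638 CPM in sham 2 and 347 CPM in RVVO 2.

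Depth per nucleus differed between libraries, so shares of nuclei with a transcript were taken after each nucleus had been thinned to 1000 UMIs. A Vegfa UMI was found in 56.3% of CMs in sham 1 (Wilson 95% confidence interval 54.2% to 58.3%), 55.6% in sham 2 (53.7% to 57.4%), 44.6% in RVVO 1 (42.7% to 46.5%) and 47.8% in RVVO 2 (46.3% to 49.2%). These intervals cover counting error only. In macrophages, the share at the same depth was 6.21%, 4.09%, 5.80% and 5.62%. Without thinning, the CM shares were 93.3%, 91.7%, 93.9% and 88.7%.

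Vegfb (chr19:6982473-6987651, minus strand), a ligand of Flt1 alone among the receptor kinases, was spread most evenly. It was at 65.4, 63.5, 53.7 and 71.0 CPM in CMs, with a mean of 63.4 CPM beside means of 29.8 to 52.0 CPM in the other lineages. The estimate in the model was 2.13-fold with TMM scaling and 1.42-fold without it (edgeR adjusted p = 1.61e-12 and 1.27e-05). In the other 7 lineages the values ranged from 16.4 to 68.9 CPM, and only the epicardial level was called lower, at 0.627-fold (edgeR adjusted p = 4.88e-04). Vegfb could not be ranked beyond that, since neighbours in the order overlapped between all lineages but smooth muscle and epicardial nuclei.

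Vegfc (chr8:54077606-54187096, plus strand), the lymphangiogenic ligand, had 3 sources. Fibroblasts were at 131, 122, 166 and 171 CPM, epicardial nuclei at 186, 103, 147 and 82.4 CPM and ECs at 81.0, 125, 143 and 81.4 CPM. All 3 were called higher than the other lineages, with folds of 4.97, 4.08 and 3.63 (edgeR adjusted p = 1.49e-16, 1.64e-12 and 4.07e-14). They were not separable from each other, because their ranges overlapped. The remaining lineages lay between 3.57 and 35.3 CPM, with CMs lowest at 5.39, 3.71, 7.60 and 3.57 CPM. Pgf (chr12:85166635-85177790, minus strand) was counted rarely, with 409 UMIs in fibroblasts, 63.0% ± 11.7 (SD, 4 libraries) of its UMIs in named nuclei. Its level in fibroblasts was 17.4, 20.4, 29.5 and 27.3 CPM, 5.89-fold over the other lineages (edgeR adjusted p = 5.13e-11). Smooth muscle nuclei were also called higher, on 27 UMIs in all, at 41.2, 24.9, 21.5 and 0 CPM.

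**Figure D1:**
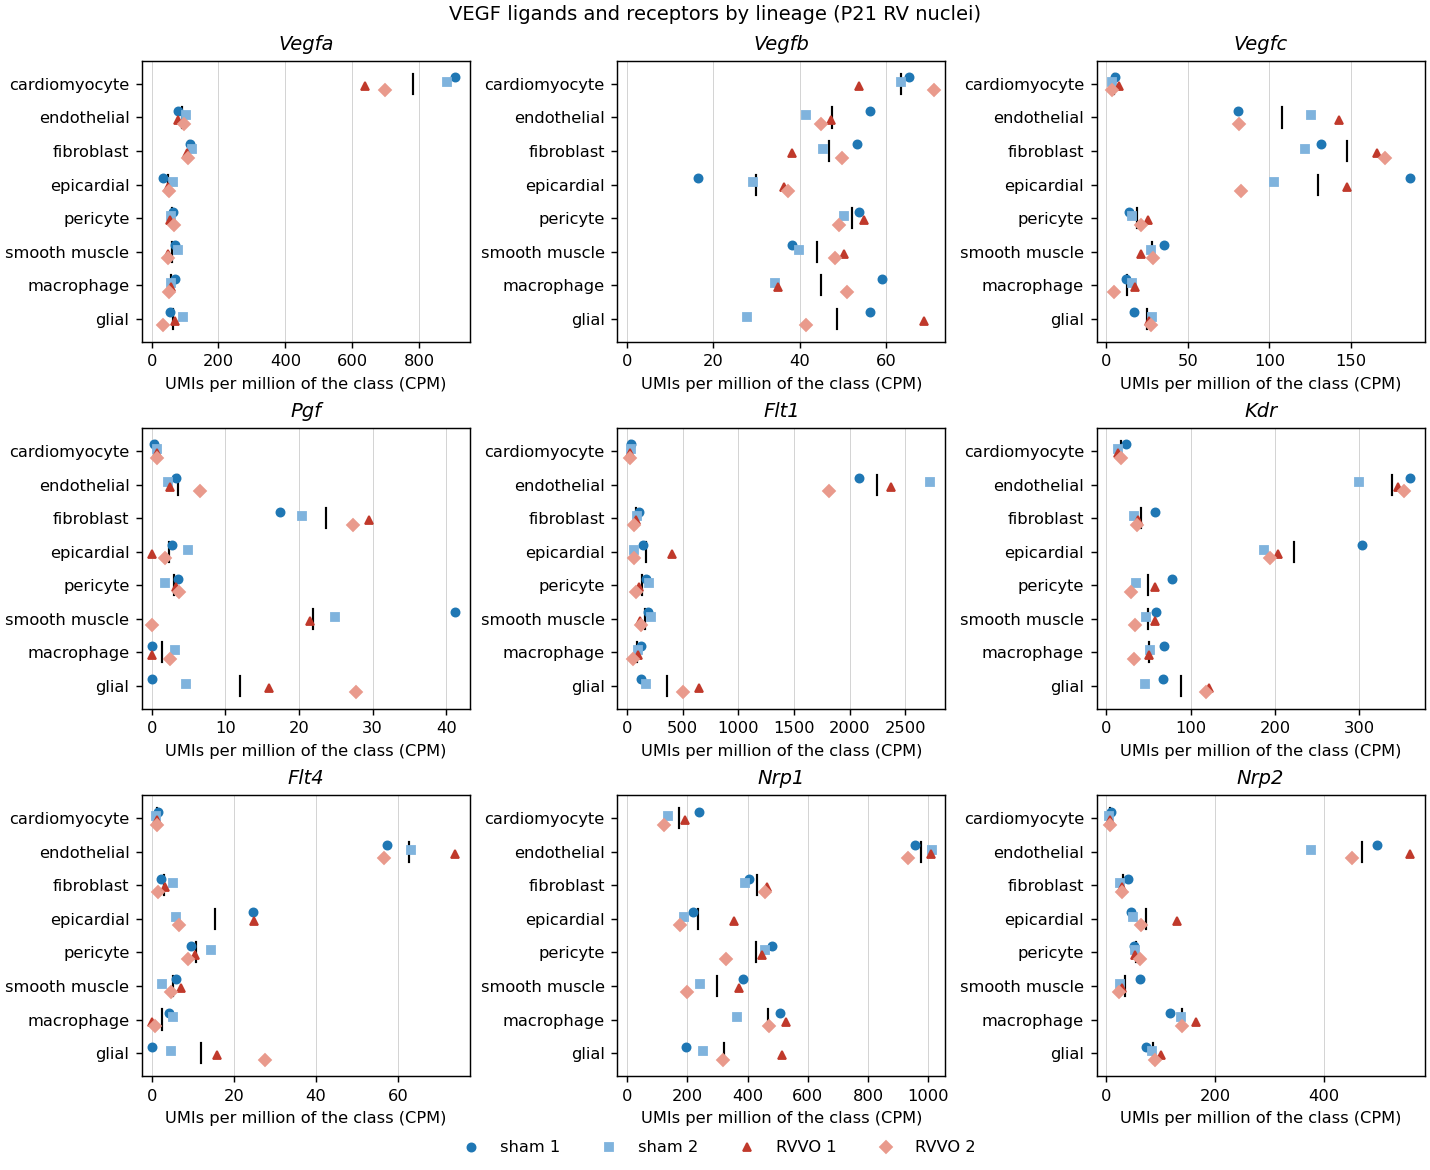
Levels of the 9 genes in 8 lineages, in CPM of the summed nuclei (linear axis); each symbol is a library and each black line the mean of the 4 libraries. Vegfa was far higher in CMs than elsewhere, at 640 to 908 CPM, and the receptors Flt1, Kdr, Flt4, Nrp1 and Nrp2 were highest in ECs.

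The receptor kinases were centred on ECs. Flt1 (chr5:147561604-147726011, minus strand), the decoy-like receptor, was at 2083, 2727, 2369 and 1816 CPM in ECs, 18.9-fold over the other lineages (log2 4.24 ± 0.19 SE, adjusted p = 5.38e-20), and ECs held 90.0% to 94.4% of its UMIs. Kdr (chr5:75932827-75978458, minus strand), the main signalling receptor, was at 360, 299, 346 and 352 CPM in ECs, 6.02-fold over the others (edgeR adjusted p = 4.96e-22). It was also called higher in epicardial nuclei, at 303, 187, 204 and 194 CPM and 3.51-fold (edgeR adjusted p = 3.22e-15). EC and epicardial Kdr levels overlapped by a small margin, since sham 1 of the epicardial nuclei exceeded sham 2 of the ECs. The summed EC markers of epicardial nuclei were 467, 299, 1408 and 365 CPM, that is 4.81% to 22.1% of the level in ECs, while Kdr was at 55.2% to 84.3% of the EC level.

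Flt4 (chr11:49609263-49652739, plus strand), the VEGF-C receptor, was at 57.3, 63.0, 73.8 and 56.6 CPM in ECs and 12.2-fold over the other lineages (edgeR adjusted p = 2.21e-19). Nrp1 (chr8:128358604-128503363, plus strand) was the least restricted receptor gene. It was at 955, 1012, 1007 and 932 CPM in ECs, 3.02-fold over the others (edgeR adjusted p = 1.83e-14), and between 121 and 526 CPM in all other lineages, with ECs holding 45.3% to 62.3% of its UMIs. Nrp2 (chr1:62703285-62818695, plus strand) was at 498, 377, 558 and 452 CPM in ECs and at 118, 137, 165 and 140 CPM in macrophages, and both were called higher, 9.97-fold and 2.39-fold (edgeR adjusted p = 9.53e-24 and 1.45e-09). In CMs, Nrp2 was at 5.65 to 9.28 CPM, the lowest of the 8 lineages. All 5 receptor genes and Vegfc were thus called higher in ECs.

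The other genes whose level followed a member most closely were found by Pearson's r of log2(CPM + 1) over 32 points, 8 lineages in 4 libraries, among 9879 genes. Points of a library share its depth and those of a lineage its identity, so r is a description. Vegfa was followed by Pcdh7 (r = 0.960), Esrrg (0.954), which encodes a nuclear receptor of oxidative metabolism, and Gm20619 (0.942). Vegfc was followed by Cd34 (0.932), Fbln2 (0.929) and Galnt15 (0.885). These are genes of fibroblasts and vessels such as the surface protein CD34 and the matrix protein fibulin. Flt1 was followed by Ptprb (0.972), Arhgef15 (0.970) and Cyyr1 (0.966), and 2 of these, Ptprb and Cyyr1, were among the EC markers. Kdr was followed by Ablim3 (0.951), Ccdc85a (0.924) and the water channel gene Aqp1 (0.924). Flt4 was followed by Adgrf5 (0.875), Ephb4 (0.872) and Shank3 (0.871), Nrp1 by Tcf4 (0.907), Adgre5 (0.871) and Arl4a (0.863), and Nrp2 by Xiap (0.943), Rin3 (0.940) and the laminin receptor gene Itga6 (0.920). The likeness was lowest for the sparse or even ligands, with Tuba8 (0.796), Srsf1 (0.773) and Mrpl47 (0.767) for Vegfb and Pi15 (0.70), Morf4l2 (0.689) and Braf (0.689) for Pgf.

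ECs were divided by the UMIs of subtype markers in each nucleus into capillary, endocardial, arterial and lymphatic nuclei. A subtype was given to 6926 of 12742 ECs (54.4%), and 5816 had too few marker UMIs or a tie. Capillary nuclei numbered 1905, 1433, 904 and 789, endocardial nuclei 219, 204, 254 and 433, arterial nuclei 144, 180, 59 and 103, and lymphatic nuclei 88, 72, 82 and 57. Since most of these markers assigned the nuclei, their sums are given only as a description. The sums are over the full lists, with Mecom, Cd36 and Hmcn1, which were not used to assign nuclei. The 5 lymphatic markers, Prox1 and Reln among them, summed to 3970 to 4684 CPM in lymphatic nuclei and to at most 146 CPM in the other subtypes. The full capillary and arterial lists were less distinct, and most of the overlap came from Cd36 and Mecom. The capillary list summed to 4902 to 5538 CPM in capillary and still to 1814 to 2966 CPM in arterial nuclei, where Cd36 alone was at 1524 to 2491 CPM. The arterial list summed to 4552 to 6097 CPM in arterial nuclei, 1943 to 2303 CPM in endocardial and 1356 to 1943 CPM in capillary nuclei. Mecom alone was at 1612 to 1907 CPM in endocardial and 1223 to 1812 CPM in capillary nuclei. Each subtype was tested against the mean of the other 3 over 8009 genes, and of 36 pairs 13 were called higher and 12 lower. Capillary nuclei had 4 members higher and 3 lower (23.6% and 21.0% of all genes), arterial nuclei 4 and 2 (11.3% and 6.31%), endocardial nuclei 1 and 4 (16.7% and 17.7%) and lymphatic nuclei 4 and 3 (17.6% and 18.7%).

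Flt1, Kdr and Nrp1 were highest in capillary ECs and Flt4 and Nrp2 in lymphatic ECs. Flt1 was at 2383, 3098, 2994 and 2173 CPM in capillary nuclei, 3.22-fold over the other subtypes (edgeR adjusted p = 2.52e-20). Arterial nuclei followed at 1407 to 2161 CPM, endocardial nuclei at 1047 to 1187 CPM and lymphatic nuclei at 255 to 347 CPM, and no neighbours in this order overlapped. A Flt1 UMI was found in 80.5% to 89.1% of capillary nuclei and 12.9% to 17.6% of lymphatic nuclei at 1000 UMIs. Kdr was at 443, 394, 475 and 517 CPM in capillary nuclei, 3.13-fold over the others (adjusted p = 2.33e-17). Lymphatic nuclei came next with 209 to 302 CPM and arterial nuclei overlapped with them at 175 to 219 CPM. Endocardial nuclei, which line the chamber, had Kdr at 75.1, 37.5, 66.4 and 83.3 CPM only, 0.236-fold the mean of the other subtypes (edgeR adjusted p = 5.32e-16), although their Flt1 and Nrp1 levels were 1068, 1187, 1138 and 1047 CPM and 729, 794, 683 and 696 CPM. Nrp1 was at 1089, 1186, 1251 and 1119 CPM in capillary nuclei and at 114, 54.5, 148 and 102 CPM in lymphatic nuclei.

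Flt4 was at 541, 645, 551 and 600 CPM in lymphatic nuclei and between 22.1 and 64.6 CPM in the others, 14.0-fold higher (log2 3.81 ± 0.11 SE, edgeR adjusted p = 2.28e-25). Nrp2, the neuropilin of lymphatic vessels, was at 962, 798, 1291 and 997 CPM in lymphatic, 554, 415, 607 and 505 CPM in capillary, 189, 145, 225 and 219 CPM in endocardial and 132, 85.0, 274 and 219 CPM in arterial nuclei. The lymphatic and capillary levels were called higher, 3.77-fold and 1.67-fold (edgeR adjusted p = 7.48e-18 and 1.32e-08). Lymphatic ECs thus combined the highest Flt4 and Nrp2 with the lowest Flt1 and Nrp1 of the 4 subtypes, in all 4 libraries.

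Among the 4 subtypes, Flt1, Kdr and Nrp1 were highest in capillary ECs and Flt4 in lymphatic ECs. Their promoters are shown for this contrast, 250 bases before the RefSeq transcript start (GRCm38.p6), 5′ to 3′ in the direction of transcription. Capitals mark GGAA, the core of the sites bound by ETS factors, which are known regulators of endothelial genes, or its reverse complement TTCC. The letters GGAA or TTCC occurred in 93.4% of 32851 promoters of this length, with a median count of 3, and at least 4 times in 33.4%. Flt1, Kdr and Nrp1 had 4 each and Flt4 2. Nrp2, also highest in lymphatic ECs, had 1 and is not shown. Of the ligands, Vegfa, which was highest in CMs, had 6 in 1 window and 2 in another. Vegfb and Vegfc had 1 each and Pgf 0. A relation of these counts to the levels was not tested. The windows of Nrp1 and Flt4 lie inside the gene spans given above, which came from GENCODE and not from RefSeq. The windows are chr5:147726012-147726261 on the minus strand, chr5:75978456-75978705 on the minus strand, chr8:128358823-128359072 on the plus strand and chr11:49609429-49609678 on the plus strand.
Flt1: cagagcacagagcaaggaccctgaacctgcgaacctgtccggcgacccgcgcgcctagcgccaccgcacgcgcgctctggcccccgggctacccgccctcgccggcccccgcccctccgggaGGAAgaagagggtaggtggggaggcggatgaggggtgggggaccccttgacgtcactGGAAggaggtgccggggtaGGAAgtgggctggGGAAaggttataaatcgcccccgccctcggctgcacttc
Kdr: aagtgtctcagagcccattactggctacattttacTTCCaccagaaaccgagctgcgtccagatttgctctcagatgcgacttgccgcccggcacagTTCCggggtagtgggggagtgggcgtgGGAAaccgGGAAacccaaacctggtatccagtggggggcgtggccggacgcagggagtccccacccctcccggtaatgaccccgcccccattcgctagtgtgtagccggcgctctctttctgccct
Nrp1: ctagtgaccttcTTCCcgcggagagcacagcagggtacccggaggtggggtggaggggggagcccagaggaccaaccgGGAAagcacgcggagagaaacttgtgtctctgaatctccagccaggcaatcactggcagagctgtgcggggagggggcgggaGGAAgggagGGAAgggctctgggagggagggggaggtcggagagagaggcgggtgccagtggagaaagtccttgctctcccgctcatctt
Flt4: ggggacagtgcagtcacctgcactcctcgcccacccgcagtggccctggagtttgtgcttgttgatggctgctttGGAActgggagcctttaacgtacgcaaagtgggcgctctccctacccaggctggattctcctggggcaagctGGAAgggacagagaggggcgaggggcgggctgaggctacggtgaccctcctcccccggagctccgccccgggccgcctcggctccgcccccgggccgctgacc

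Ligand transcripts were also counted in ECs, and the levels of Vegfc, Vegfa and Pgf differed between subtypes. Vegfa in ECs was at 8.75% to 14.0% of its CM level, and the part of free RNA in it was not tested. Vegfc was at 318, 385, 606 and 369 CPM in arterial nuclei, 9.49-fold over the other subtypes (log2 3.25 ± 0.15 SE, edgeR adjusted p = 5.61e-19), with capillary and endocardial nuclei at 49.1 to 96.5 CPM and lymphatic nuclei at 6.90 to 54.5 CPM. A Vegfc UMI was found in 22.0% to 25.5% of arterial nuclei. Among the EC clusters, the one led by Kirrel3, Kcnc2 and Rasa4 had Vegfc at 434, 627, 740 and 413 CPM, above arterial nuclei in all 4 libraries. This cluster held 5.32% to 10.1% of ECs. Flt1 in this cluster, at 2986, 3683, 3559 and 2630 CPM, was also above capillary nuclei in all 4 libraries. Subtypes were given to single nuclei and not to clusters, so nuclei of this cluster may also be counted in the 4 subtypes. The genes Vwf and Nr2f2 were both higher in this cluster than in arterial and in capillary nuclei, in all 4 libraries. Vwf was higher still in endocardial nuclei, and Nr2f2 in lymphatic nuclei. The vessel type of this cluster was not tested, and it was not a class of its own in the subtype comparison. Vegfa was also called higher in arterial ECs, at 122, 242, 73.3 and 157 CPM and 1.72-fold (edgeR adjusted p = 1.58e-04). In RVVO 1 the arterial level lay below the endocardial and lymphatic levels of 89.5 and 76.2 CPM, and without doublet removal the call was lost (log2 0.31, edgeR adjusted p = 0.219). Vegfa was called lower in capillary ECs, at 68.8, 84.5, 64.5 and 79.4 CPM and 0.670-fold (edgeR adjusted p = 9.83e-05). Pgf was at 37.9, 29.8, 27.0 and 107 CPM in lymphatic nuclei, which rests on 11, 6, 11 and 20 UMIs, and at 0 to 6.97 CPM in the other subtypes (edgeR adjusted p = 3.55e-10). Vegfb did not pass the test in any subtype and was between 27.6 and 57.1 CPM in all of them.

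**Figure D2:**
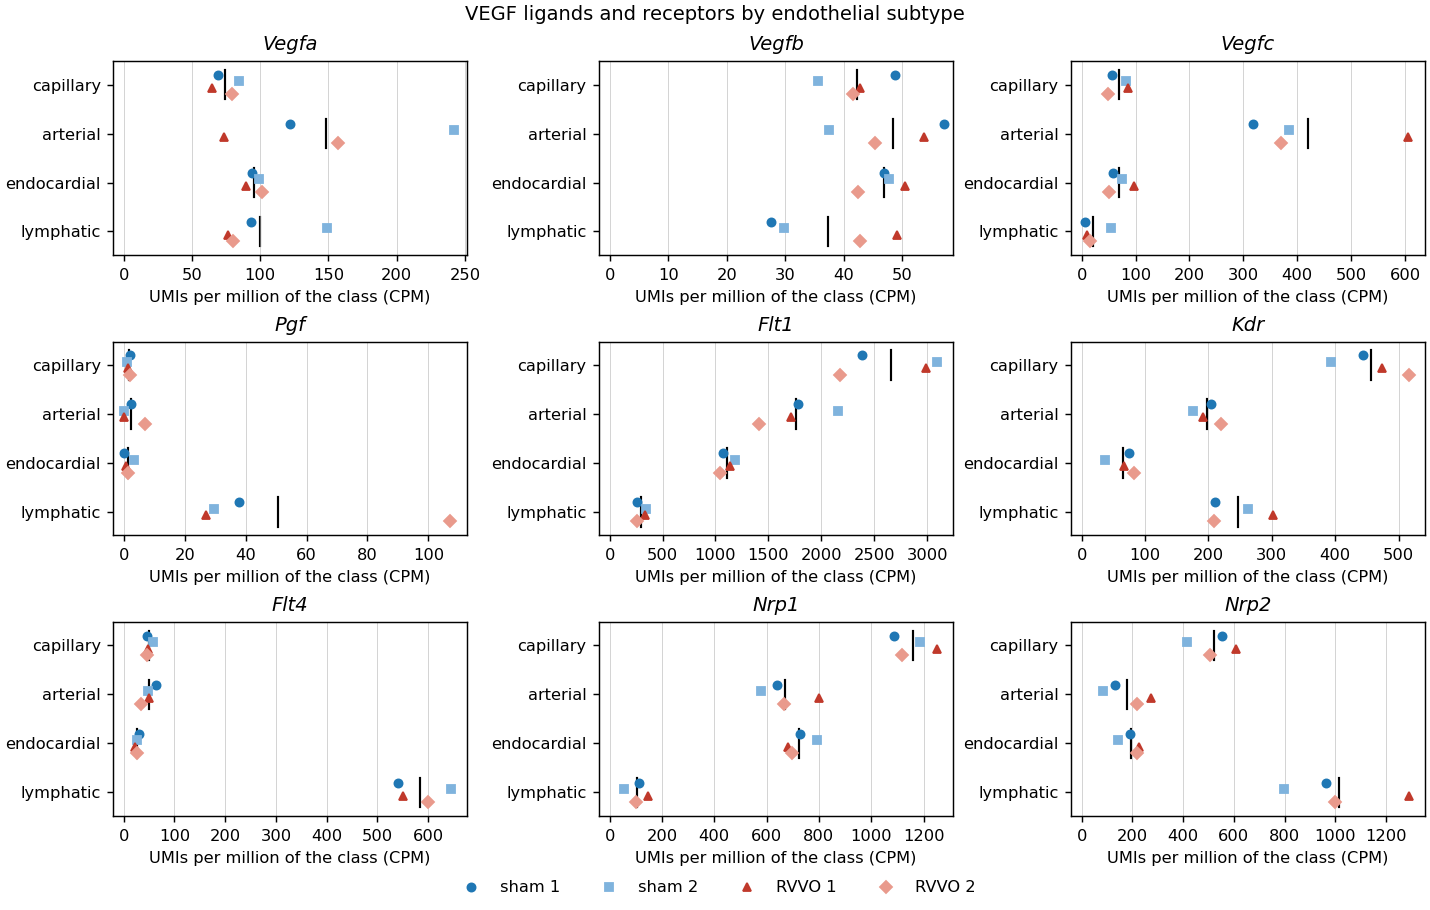
Levels of the 9 genes in 4 endothelial subtypes, in CPM of the summed nuclei (linear axis); each symbol is a library and each black line the mean of the 4 libraries. Among these 4 subtypes, Flt4 and Nrp2 were highest in lymphatic ECs, Flt1, Kdr and Nrp1 in capillary ECs and Vegfc in arterial ECs.

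The RVVO and sham libraries were then compared within each lineage, with 2 libraries per group, in edgeR fits over all genes. In the 5 main lineages, 42 of 45 pairs of a gene and a lineage passed the filter on low counts, and 0 were called in RVVO against sham by edgeR or DESeq2. The calls over all genes were 0.0482% in CMs, 0.251% in ECs, 0.0922% in fibroblasts, 0.0813% in pericytes and 0.0989% in macrophages, and the smallest adjusted p of a member was 0.304. At an unadjusted p under 0.05 there were 6 pairs, 2 in CMs (6.43% of all genes), 0 in ECs (9.72%), 3 in fibroblasts (4.13%), 1 in pericytes (4.32%) and 0 in macrophages (7.10%). The groups did not overlap for 3 of 9 members tested in CMs (37.5% of all genes), 0 of 9 in ECs (39.7%), 5 of 9 in fibroblasts (30.4%), 3 of 8 in pericytes (31.2%) and 4 of 7 in macrophages (36.1%).

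Vegfa in CMs was at 908 and 884 CPM in the sham libraries and at 640 and 697 CPM in the RVVO libraries. Both RVVO values were below both sham values. The log2 fold change was -0.50 ± 0.12 (SE, edgeR adjusted p = 0.706), and it ranged from -0.53 to -0.38 over the other settings. The exact two-sided permutation test over the shares of CMs with a Vegfa UMI, 55.9% ± 0.508 (SD, n = 2) against 46.2% ± 2.21 (SD, n = 2), gave p = 0.333, the smallest p that 2 against 2 libraries can give. Without thinning, the difference was -1.17 percentage points in place of -9.73. The libraries differed in the clusters that made up their CMs. The largest, c3, held 84.6% of the CMs of sham 1 and 4.17% of those of RVVO 1, whereas c5 held 6.19% and 75.7% of them. Within c3 the Vegfa level was 933, 890, 734 and 740 CPM, within c4 1029, 1053, 853 and 791 CPM, and within c5 668, 762, 618 and 565 CPM. The RVVO values were the lower ones, without overlap, in each of these 3 clusters. The clusters are parts of the same 4 libraries and not independent repeats, and in summed CMs 37.5% of all genes did not overlap. Some values rest on few nuclei, with 108 in c3 of RVVO 1 and 148 and 140 in c4 and c5 of sham 1. The part of the cluster make-up in the level of summed CMs was not tested. Vegfa was lower in a cluster led by Mpped2, Sema3a and Fgf14 (c22), at 406, 427, 389 and 439 CPM, where the groups overlapped. It was also lower in a cluster led by Fgf12, Ryr3 and Kcnj3 (c19), at 460 CPM in sham 2, 445 in RVVO 1 and 339 in RVVO 2. In c27, with enough nuclei in RVVO 1 only, it was at 563 CPM.

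**Figure D3:**
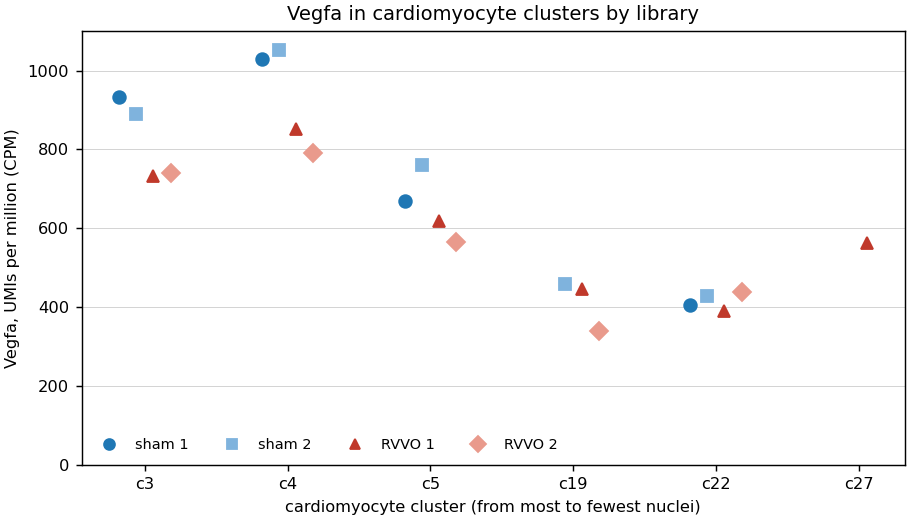
Vegfa level in clusters of CMs by library, in CPM of the summed nuclei (linear axis from 0), for clusters with at least 20 nuclei in the library. In c3, c4 and c5, which are parts of the same 4 libraries, the 2 RVVO values lie under the 2 sham values. The level differed between clusters as well.

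The receptors of ECs did not separate the groups. Flt1 in ECs was at 2083 and 2727 CPM against 2369 and 1816 CPM (log2 -0.28 ± 0.20 SE), Kdr at 360 and 299 against 346 and 352 CPM (-0.01 ± 0.15), Flt4 at 57.3 and 63.0 against 73.8 and 56.6 CPM (0.03 ± 0.16) and Nrp1 at 955 and 1012 against 1007 and 932 CPM (-0.11 ± 0.13). The lower ends of their 95% intervals by the normal approximation were -0.67, -0.30, -0.29 and -0.37. Nrp2 was at 498 and 377 against 558 and 452 CPM (0.12 ± 0.20), with a lower end of -0.27. This approximation is too narrow for 2 libraries per group, so decreases of these sizes were not excluded. Increases were not excluded either. Sham and RVVO levels overlapped for all 9 genes in ECs, and the lowest adjusted p was 0.780, that of Flt1. The clusters that made up the ECs differed between libraries too. The cluster led by Nrg1, Vwf and Npr3 (c9) held 6.13%, 5.85%, 14.4% and 23.9% of ECs. The cluster led by Ablim3, Ccdc85a and Mcf2l (c2) held 39.8%, 37.8%, 23.4% and 11.4%. The part of this make-up in the levels of summed ECs, here and below, was not tested.

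In fibroblasts, the ligand levels were higher in the RVVO libraries for Vegfc, at 131 and 122 against 166 and 171 CPM (log2 0.38 ± 0.13 SE, edgeR adjusted p = 0.9995), and for Pgf, at 17.4 and 20.4 against 29.5 and 27.3 CPM (0.55 ± 0.19, adjusted p = 0.9995). Flt1 was lower, at 106 and 87.1 against 78.6 and 61.2 CPM (-0.50 ± 0.19, adjusted p = 0.9995). None of these passed the test.

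The lowest unadjusted p in the 5 lineages was that of Flt1 in pericytes, the mural cells of capillaries. Flt1 was at 169 and 199 CPM in the sham and at 107 and 80.5 CPM in the RVVO libraries (log2 -0.95 ± 0.20 SE, edgeR adjusted p = 0.304). It was called in 3 of 12 alternative settings, which were without sham 1 (-1.04, adjusted p = 0.00125), without sham 2 (-0.86, adjusted p = 0.0294) and without the filter on low counts (-0.97, adjusted p = 0.00175). With a sham library left out, the lone sham library is assumed to vary as the RVVO libraries do. Without RVVO 1 or RVVO 2 it was not called (adjusted p = 0.262 and 0.884), and over all 12 settings the adjusted p ran up to 0.9995. Flt1 was lower in both RVVO libraries than in both sham libraries in CMs, fibroblasts, macrophages and smooth muscle nuclei as well. The share of ECs among named nuclei was also lower in both RVVO libraries, at 47.9%, 39.2%, 30.4% and 22.1%. These shares depend on naming. An unnamed cluster of low UMIs whose best list was that of CMs, with 1677, 1429, 187 and 228 nuclei, was left out. The EC cluster c2, also low in UMIs, was counted, with 1681, 1655, 461 and 247 nuclei. The summed EC markers of pericytes were at 442, 326, 314 and 311 CPM, and 5 of the 9 markers were lower in both RVVO libraries. Single markers in pericytes differed from each other. Relative to its EC level, Emcn was at 7.93%, 5.50%, 3.81% and 3.65%, and Cdh5 at 17.8%, 11.2%, 9.97% and 16.6%. Flt1 was at 8.13%, 7.29%, 4.53% and 4.44% of its EC level. With each nucleus named on its own by its markers, the Flt1 difference in pericytes was 0.013 on the log2 scale. The part of EC RNA in these levels was not tested.

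The opposite held in a small lineage. Flt1 was called higher in RVVO in glial nuclei, at 124 and 172 against 646 and 505 CPM (log2 1.92 ± 0.31 SE, edgeR adjusted p = 0.0393), where 0.481% of all genes were called. The call was lost after thinning to 1000 UMIs, with nuclei named one by one and with the replicate number as a block (edgeR adjusted p = 0.610, 0.574 and 0.337), and it held in 8 of 11 alternative settings. Of the 6 members tested in this lineage, 1 was called and 4 did not overlap between groups, as did 38.1% of all genes. The glial lineage held 75, 114, 39 and 46 nuclei. The summed EC markers there were 412, 451, 1574 and 1516 CPM, and all 9 of them were higher in both RVVO libraries. The same was measured in epicardial nuclei of RVVO 1, with Flt1 at 400 CPM and the EC markers at 1408 CPM. The part of EC RNA in these levels was not tested.

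**Figure D4:**
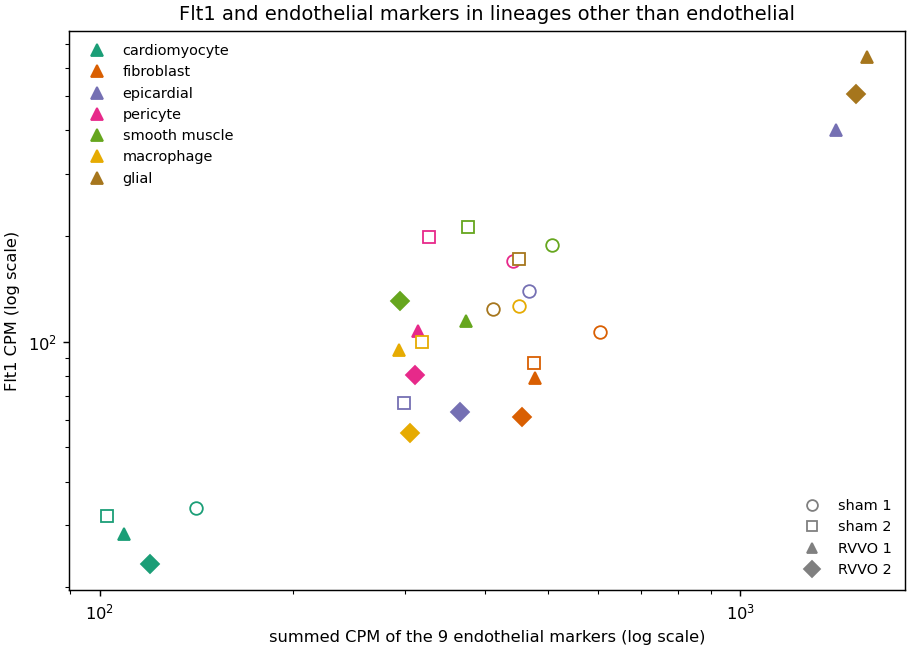
Flt1 level against the summed level of 9 EC markers in lineages other than ECs, both in CPM on log axes; colours are lineages, open symbols sham and filled symbols RVVO libraries. The 2 glial RVVO values and epicardial RVVO 1 had the highest levels of both.

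Within EC subtypes, 31 of 36 pairs were tested, 0 were called by edgeR or DESeq2, and 1 had an unadjusted p under 0.05. Over all genes, the adjusted p passed for 0.308% in capillary, 0.0776% in endocardial, 0.134% in arterial and 0.119% in lymphatic nuclei, and the unadjusted p for 6.02%, 4.76%, 5.89% and 5.04%. The groups did not overlap for 1 of 8, 3 of 8, 3 of 8 and 3 of 7 members tested, beside 34.5%, 33.6%, 33.9% and 33.1% of all genes. The member with the low unadjusted p was Nrp2 in arterial ECs, at 132 and 85.0 CPM against 274 and 219 CPM (log2 1.15 ± 0.29 SE, edgeR adjusted p = 0.264). It was called in 1 of 12 alternative settings, without sham 1 (1.503, adjusted p = 0.0335), where the lone sham library is assumed to vary as the RVVO libraries do. In the others the adjusted p was between 0.0512 and 0.99997. All 4 libraries together held 486 arterial nuclei. Nrp2 was also higher in both RVVO libraries in endocardial ECs (0.37 ± 0.21) and lymphatic ECs (0.38 ± 0.22), with adjusted p of 0.998 and 0.999, and not in capillary ECs, where the groups overlapped. The test of the difference between arterial and other subtypes had an adjusted p of 0.556. Kdr in capillary ECs was at 443 and 394 CPM against 475 and 517 CPM (0.19 ± 0.15) and was not called.

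**Figure D5:**
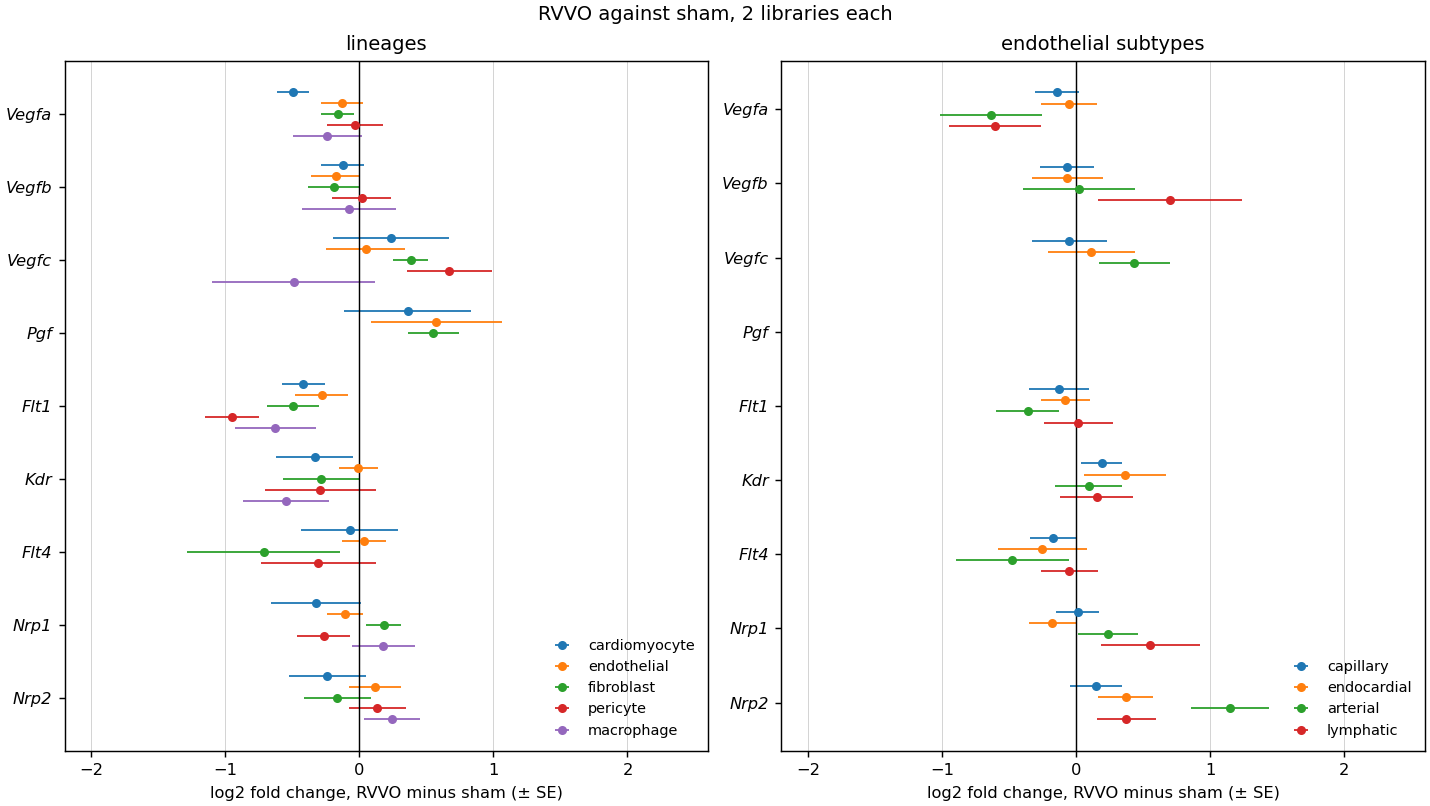
Log2 fold change of the 9 genes, RVVO minus sham, with bars of ± 1 SE from the edgeR fit, in 5 lineages (left) and 4 EC subtypes (right), for genes that passed the filter. Among these estimates Flt1 in pericytes was -0.95, Vegfa in CMs -0.50 and Nrp2 in arterial ECs 1.15, and none was called.

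The genes around the family were followed in 5 lists, which held other ligand genes and ligand processing (4 genes in the files), class 3 semaphorins and plexins (12), the receptor signal chain (18), VEGF-responsive and tip cell genes (15) and regulators of Vegfa (17). In the 5 main lineages and the 4 subtypes, 0 genes of these lists were called by edgeR in either direction. At an unadjusted p under 0.05 there were 6 of the 59 list genes tested in CMs (6.43% of all genes) and 11 of the 60 tested in ECs (9.72%). The median log2 change of the regulators was -0.10 in CMs and -0.13 in ECs, beside medians of 0.00 and -0.01 over all genes tested. That of the tip cell genes was 0.07 and -0.09, and that of the receptor signal chain -0.17 and -0.15. The semaphorins and plexins had medians of -0.17 and -0.02, and the other ligand genes 0.12 and 0.55, over 3 and 4 genes. In CMs, the adaptor gene Shb was at 225 and 286 CPM against 144 and 146 CPM (log2 -0.89 ± 0.15 SE, edgeR adjusted p = 0.639), and the kinase gene Mapkapk2 at 262 and 264 against 199 and 221 CPM (-0.40 ± 0.12, adjusted p = 0.710). DESeq2, the other tool, called Shb (adjusted p = 0.00377), which was called in only 1 of 13 alternative settings. In ECs, Hif3a, a relative of the hypoxia-inducible factors, was at 11.1 and 9.26 CPM against 30.2 and 27.6 CPM (1.41 ± 0.18, edgeR adjusted p = 0.0508). Sema3a, a semaphorin that binds Nrp1, was at 30.2 and 30.2 CPM against 63.9 and 55.8 CPM (0.90 ± 0.14, edgeR adjusted p = 0.0689). DESeq2 called both Hif3a and Sema3a (adjusted p = 3.21e-04 and 0.00755), as did edgeR without TMM factors (adjusted p = 0.0237 and 0.0497). Of 12 alternative settings, Hif3a was called in 8 and Sema3a in 3. These settings include fits with a library left out, where the lone library of a group is assumed to vary as the others do. Ppargc1a, known as a metabolic inducer of Vegfa, was named after its values were seen. In CMs it was at 10430 and 10459 CPM in the sham libraries and at 4684 and 8722 CPM in the RVVO libraries (-0.72 ± 0.29, edgeR adjusted p = 0.758). The groups did not overlap, as for 37.5% of all genes in CMs. Ppargc1a was among the leading genes of c3 and c4 and not of c5, which held 75.7% of the CMs of RVVO 1. The part of this make-up in the Ppargc1a level, and that of Ppargc1a in the Vegfa level, were not tested.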

How the data were processed

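Nuclei of frozen RVs were isolated by the authors, captured with 10x v3 chemistry at the 3′ end and sequenced on a NovaSeq system. The deposited matrices hold UMI counts per gene and barcode, whole numbers with no scaling. The submitters' processing notes name Cell Ranger 3.0.1, STAR, Seurat 3.0.2 and GRCm38, whereas the file headers name Cell Ranger 5.0.0. Whether introns or strand were used is not stated there. Totals were 55516713, 51010039, 64739206 and 63422784 UMIs (sham 1, sham 2, RVVO 1, RVVO 2).

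Kept barcodes had 200 or more genes and less than 10% mitochondrial UMIs, and those with the highest doublet scores (an implementation of Scrublet's method) were removed at 0.8% per 1000 barcodes. Nuclei were clustered without the 9 genes, sex, mitochondrial and ribosomal genes (2000 variable genes, 30 components, 15 neighbours, Leiden resolution 1; Python 3.11.15, leidenalg 0.10.2). Clusters were named by the fold of marker lists with at least 3 markers detected, and stayed unnamed where markers of another lineage were mixed in. An EC was given the subtype with most marker UMIs, at least 2 UMIs from 2 markers, leaving out Mecom, Cd36 and Hmcn1, which occurred in all EC clusters. These naming thresholds and omissions were chosen with the clusters in view. Counts were summed per library and lineage or subtype and tested with edgeR 4.0.16 (TMM, filter on low counts, quasi-likelihood test) in R 4.3.3, with DESeq2 1.42.0 as an alternative. The procedure was tested on counts simulated with a fixed dispersion. These held no differences in cluster make-up, free RNA or naming, so the simulation does not cover them. Named genes were the 9 members, the 3 genes most like each, list genes called or, with none, the 2 of lowest p in CMs and in ECs, and sex genes. Gene positions came from GENCODE vM21 (GRCm38) and promoters from RefSeq, where all 9 genes matched. The members and lists were chosen with earlier results of these data known.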

Additional observations from a re-analysis of the deposited data

Results flagged for a closer look

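Flt1 in glial nuclei stood apart because its RVVO minus sham difference there exceeded the mean of the other 7 lineages by 2.23 on the log2 scale (SE 0.49, edgeR interaction test with the library as a block, adjusted p = 0.0364). Both RVVO libraries were above both sham libraries in glial nuclei, at 646 and 505 against 124 and 172 CPM, and the summed EC markers there were 1574 and 1516 against 412 and 451 CPM. The part of EC RNA in this difference was not tested. Within glial nuclei, the RVVO call was lost after thinning to 1000 UMIs (log2 1.14, adjusted p = 0.610), when nuclei were named one by one (1.38, adjusted p = 0.574) and with the replicate number as a block (1.91, adjusted p = 0.337).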

How the results depend on the processing

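The number of members called in RVVO against sham was 0 in the 5 lineages and 0 in the 4 subtypes, and it stayed at 0 with DESeq2, without TMM factors, without doublet removal and at 1000 UMIs per nucleus. Without the filter on low counts it was 1 in the lineages, Flt1 in pericytes. Leaving out each library in turn gave 0 to 1 in the lineages and 0 to 1 in the subtypes. The pairs called higher numbered 15 to 21 across lineages and 12 to 14 across subtypes, scaling by library size alone included, an alternative chosen after seeing the data. The Vegfa share in CMs differed by -1.17 percentage points without thinning, and by -11.3 to -8.17 with a library left out. Same-numbered libraries were not paired in the main fits, and the labels do not say whether they share a batch. Over all genes tested, their deviations correlated at -0.032 to 0.031 in the 5 lineages, which cannot exclude a shared trait of some genes or classes. Adipocytes numbered 0, 27, 0 and 35 and epicardial nuclei 102, 436, 143 and 530, which followed the number. Pericytes, at 518, 845, 379 and 317, did not. With the replicate number as a block, 0 members were called in lineages and 0 in subtypes, and 92 genes in place of 34 in ECs, where leaving out a library gave 52 to 198.

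Directions turned mainly when each nucleus was named by its own markers. In RVVO against sham, Pgf in CMs then was -0.49, Flt1 0.068 in fibroblasts, 0.013 in pericytes and 0.85 in macrophages, and Vegfa 0.92 and Kdr 0.31 in macrophages. Across lineages, Vegfa was -0.80 in fibroblasts and 1.60 in smooth muscle, Flt1 -0.10 in glial nuclei, 0.12 in macrophages and 0.79 in pericytes, Kdr 0.39 and Nrp2 0.60 in pericytes, Vegfc 1.15 in glial nuclei and Vegfb 0.47 in smooth muscle. Without doublet removal, Vegfa was 0.48 in epicardial nuclei, -0.30 in fibroblasts and 0.56 in endocardial ECs. Vegfa in macrophages was 0.39 at 1000 UMIs, and Pgf in CMs -0.12 with an unnamed cluster of low UMIs added, an alternative chosen after seeing the data. The cause was not tested.

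Counts of all genes called moved more. DESeq2 called 76 in CMs (edgeR 7), 236 in ECs (34), 42 in fibroblasts (12), 13 in pericytes (8), 15 in macrophages (9), 81 in capillary (36) and 11 in endocardial nuclei (7). Without the filter on low counts, 129 were called in ECs, 200 in fibroblasts, 102 in pericytes, 147 in macrophages, 299 in capillary, 111 in endocardial, 37 in lymphatic (6), 1 in arterial (8) and 119 in glial nuclei (20). Without doublet removal, a cluster of 348 nuclei had the glial list as its best one. It stayed unnamed because EC markers were mixed in, so glial nuclei were not tested there. With 2 libraries per group, small differences could not be detected.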

Other observations

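Some processing and partner genes of the ligands are given here as levels with no test, and they were named after their values were seen. Ccbe1, which is needed for the activation of VEGF-C, was at 514, 620, 604 and 477 CPM in fibroblasts and at 128, 277, 110 and 366 CPM in epicardial nuclei. Figf, the gene of VEGF-D, was at 40.6, 30.3, 30.2 and 25.8 CPM in fibroblasts. Plxna4, a semaphorin receptor that pairs with neuropilins, was at 3767, 2658, 3024 and 2221 CPM in epicardial nuclei and at 391, 471, 444 and 567 CPM in ECs. Sema3d was at 714, 648, 731 and 634 CPM in epicardial nuclei, and Sema3c at 925, 581, 514 and 450 CPM in glial nuclei. Dll4, a tip cell gene, was at 46.1, 39.8, 32.2 and 35.3 CPM in ECs, where Esm1, another one, was at 0 to 1.09 CPM.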
